A study of Mus musculus with 6 samples.

Results

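The SOCS family, the suppressors of cytokine signaling, was examined in B cells from spleens of WT BALB/c mice, cultured for 4 hours with or without CpG DNA. Its members were taken by gene symbol: Socs1 to Socs7 and Cish, 8 of the 23420 genes listed, and all 8 were among the 11233 genes tested. Each group had 3 samples, which were numbered 1 to 3 in both groups, and both groups came from the same kind of mouse, 7 to 11 weeks old, with no modified allele. Stimulated cells received the TLR9 agonist CpG ODN 1826, a synthetic oligonucleotide with unmethylated CpG motifs, at 10 μg/mL, and unstimulated cells received none. Samples 1 and 2 of each group were labeled female and sample 3 male, so sex and sample number cannot be told apart. The cells were purified with beads and cultured at 10 M per mL. The count of mice is given as 3 for every sample, which does not tell whether it is per sample, per group or in all. The labels do not say whether samples with the same number shared a mouse, and p values therefore measure only the spread between these samples. Values are log2 CPM, read counts scaled to a common library size on a log2 scale, as the authors deposited them after quantile normalization; log2FC is the mean with CpG minus the mean without. On this scale a gene with 10 reads is at -0.76 and a gene with 3 reads, taken as the limit of detection, is at -2.34.

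SOCS proteins end in a SOCS box, which binds elongins B and C and a cullin and so recruits a ubiquitin ligase, and carry an SH2 domain that binds phosphotyrosine on receptors and kinases. Cytokines activate JAK kinases at their receptors, the kinases phosphorylate STAT factors, and STAT factors switch on genes that include several SOCS genes, so that the family works as a feedback brake. SOCS1 and SOCS3 also have a kinase inhibitory region that blocks JAKs directly, while CIS, the product of Cish, and SOCS2 act mainly on receptors that signal through STAT5. In B cells and other immune cells SOCS1 and SOCS3 are best known for limiting interferon and interleukin 6 signaling.

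The family did not move as one. With CpG, Socs1, Socs2, Socs3 and Cish were raised past a log2FC of 1 and Socs6 was increased by less. Socs4 and Socs5 were decreased by less than a log2FC of 1, and Socs7 did not pass. At an FDR under 0.05 from limma, 5 members were higher and 2 lower with CpG, where 37.6% of all tested genes were higher and 36.7% lower. With a log2FC over 1 as a further condition, 4 members were raised, beside 15.8% of tested genes, and 0 were lowered past a log2FC of -1, beside 15.3%. These counts include Socs2, which was tested only through the stimulated samples and could only be higher; without it 4 of 7 were higher and 3 raised. They also include Cish, with 1 of 3 unstimulated samples over the level of 10 reads and a call that most single samples decide; Socs1 and Socs3 kept theirs without each sample in turn. The median log2FC was 0.76 over the 8 members, 0.51 without Socs2 and 0.00333 over all tested genes. All samples with CpG lay above all without in 4 members, or 3 without Socs2 (39.1% of tested genes), and below in 3 (38.6%). An exact permutation test of 3 samples against 3 cannot give a p value under 0.1, so single genes were judged by limma across all genes.

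**Figure D1:**
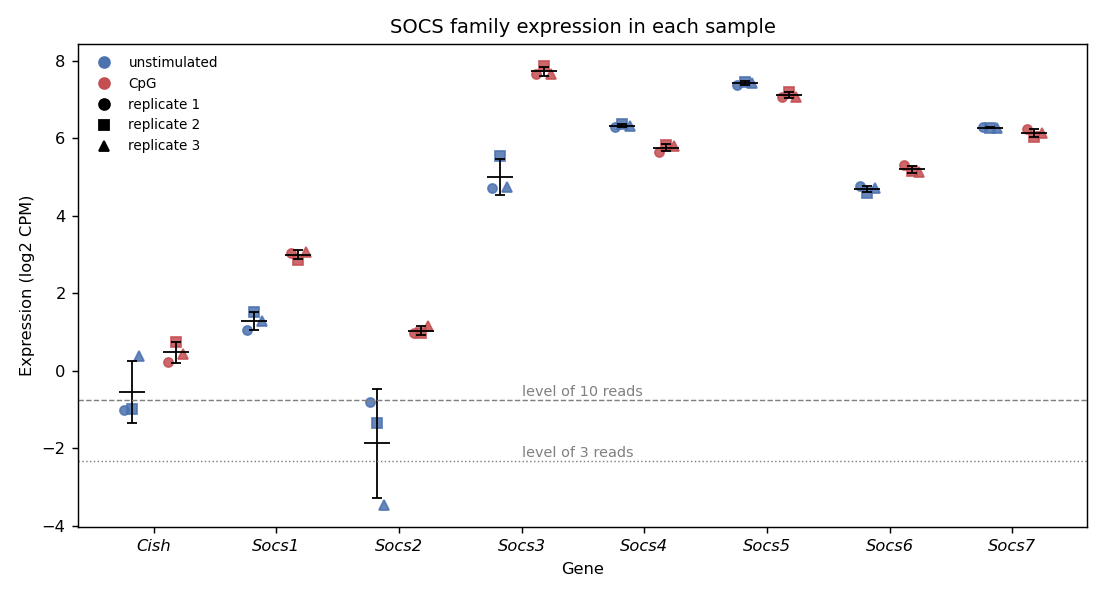
Expression of the 8 SOCS family genes in log2 CPM (vertical axis) in each of 3 unstimulated (blue) and 3 CpG-stimulated (red) samples, with the marker shape giving the sample number and black bars the mean ± SD. Socs1, Socs2 and Socs3 lie higher with CpG without overlap, Cish overlaps, and Socs4 to Socs7 shift by less than 1; dashed and dotted lines mark the levels of 10 and 3 reads.

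Socs3 had the clearest increase. It was at 4.72, 5.54 and 4.74 log2 CPM in unstimulated samples 1 to 3 and at 7.65, 7.87 and 7.67 with CpG. All stimulated samples were thus more than 2 units above all unstimulated ones, and unstimulated sample 2 stood above the other two of its group. The mean rose from 5.0 ± 0.47 to 7.73 ± 0.12 (mean ± SD, n = 3 in each group), a log2FC of 2.73 with a standard error of 0.19, or 6.64-fold (limma, Benjamini-Hochberg FDR = 5.57e-07). Only 148 of the tested genes had a larger log2FC. Between samples of the same number the difference was 2.93, 2.33 and 2.93, smallest in sample 2. Erythroid transcripts were also highest in sample 2 of both groups (summed CPM of the listed erythroid markers 4870 with CpG and 3780 without, against 379 to 593 in the other samples), and their part in the Socs3 value was not tested; without sample 2 of both groups Socs3 kept its call. Socs3 lies on the minus strand of chromosome 11 (GRCm38, 117966079 to 117970047), with its coding sequence in 1 exon.

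Socs1, the other member with a kinase inhibitory region and a strong inhibitor of interferon signaling, also increased. Unstimulated samples were at 1.04, 1.51 and 1.28 log2 CPM and stimulated samples at 3.05, 2.87 and 3.07. The groups were well apart, and sample 2 was highest without CpG and lowest with it. The log2FC was 1.72 (standard error 0.17, 3.29-fold, limma, Benjamini-Hochberg FDR = 6.89e-06), with a range of 1.60 to 1.83 after leaving out each sample in turn. Socs1 is on the minus strand of chromosome 16 from 10782240 to 10785536, also with 1 coding exon. Socs1 and Socs3 both kept their call when the log2FC was tested against 1 (limma treat, Benjamini-Hochberg FDR = 0.00716 and 5.43e-05).

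Socs2 and Cish were near the limit of what was counted. Socs2, a regulator of growth hormone and STAT5 signaling, was at -0.81, -1.36 and -3.47 log2 CPM in the unstimulated samples and at 0.97, 0.96 and 1.16 with CpG. None of the unstimulated samples reached the level of 10 reads and sample 3 was under the limit of detection, whereas stimulated samples lay close together. Socs2 therefore entered the test only through the stimulated group, where it had to be higher. Its log2FC of 2.91 had the largest standard error of the family, 0.61 (limma, Benjamini-Hochberg FDR = 0.00146), and its size depends on unstimulated sample 3, without which it was 2.11 (FDR = 0.000434). In the 4 samples of female mice it was 2.05 (FDR = 0.00352), and with 1 CPM added before the log2 it was 1.19 (FDR = 7.83e-05).

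Cish, the first described member and a target of STAT5, was at -1.01, -0.99 and 0.39 log2 CPM without CpG and at 0.23, 0.75 and 0.43 with it. Unstimulated sample 3 lay above stimulated sample 1, so the groups overlapped. Samples 1 and 2 differed between the groups by 1.25 and 1.74, and sample 3 by 0.04. The log2FC of 1.01 (standard error 0.41) passed narrowly, at a Benjamini-Hochberg FDR of 0.0477 in limma. The call was lost without stimulated sample 1, 2 or 3 or unstimulated sample 1 or 2 (FDR between 0.055 and 0.146), and without sample 2 of both groups (log2FC 0.65, FDR = 0.28). Without unstimulated sample 3 the log2FC was 1.47 (FDR = 0.00507), and in female samples alone it was 1.49 (FDR = 0.0182). With 1 CPM added before the log2 the log2FC was 0.47 (FDR = 0.0475). Exons of Cish (chromosome 9, plus strand, 107296026 to 107302784) also overlap those of Gm17040 and Gm17041 on the opposite strand. The libraries were made with a stranded kit, but whether counting used the strand is not given in the sources used here.

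**Figure D2:**
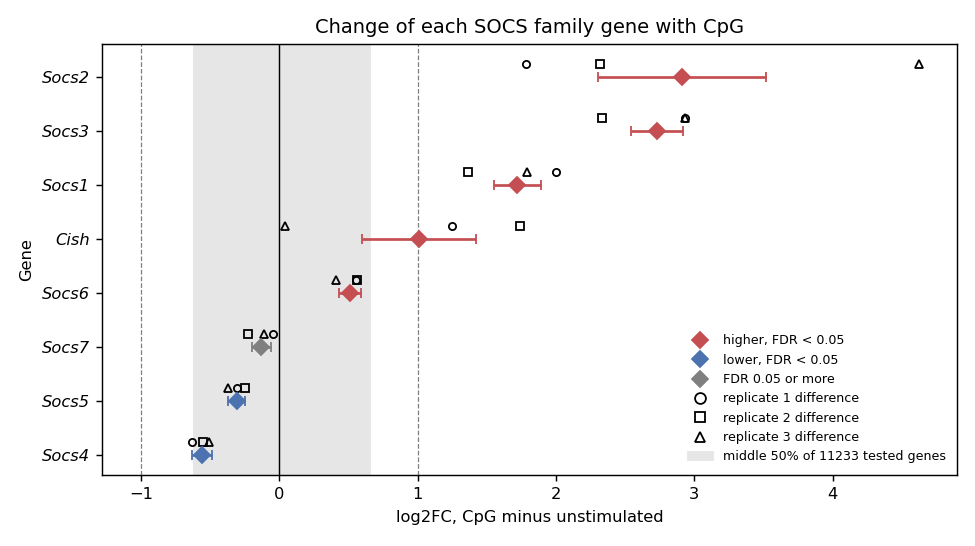
Log2FC of each SOCS family gene (horizontal axis, CpG minus unstimulated; filled diamonds, bars ± standard error) with the difference between samples of the same number as open symbols and the middle 50% of the 11233 tested genes as a grey band. Socs2, Socs3 and Socs1 lie beyond 1 for every sample number, and the open symbols of Cish run from 0.04 to 1.74.

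The remaining members, which have long N-terminal regions or act on receptor tyrosine kinases, changed little but with small errors. Socs6, whose product binds insulin receptor substrates and KIT, was at 4.76, 4.601 and 4.72 log2 CPM in unstimulated and at 5.31, 5.17 and 5.13 in stimulated samples. The groups did not overlap, and the log2FC was 0.51 (standard error 0.08, limma, Benjamini-Hochberg FDR = 0.000286). Socs4, which like SOCS5 is linked to EGF receptor signaling, went the other way, from 6.29, 6.37 and 6.31 to 5.66, 5.82 and 5.80. Its log2FC of -0.56 (standard error 0.07, limma, Benjamini-Hochberg FDR = 3.56e-05) was between -0.60 and -0.51 without each sample in turn.

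Socs5, described as an inhibitor of IL-4 signaling, was at 7.37, 7.46 and 7.44 log2 CPM in unstimulated samples and at 7.06, 7.21 and 7.08 with CpG. All stimulated samples were lower, by a log2FC of -0.31 (standard error 0.06, limma, Benjamini-Hochberg FDR = 0.00137). Socs7, a nuclear-cytoplasmic shuttling member, was at 6.29, 6.27 and 6.25 without and 6.24, 6.04 and 6.14 with CpG. Every stimulated sample lay under every unstimulated one, but the log2FC of -0.13 (standard error 0.07) did not pass (limma, Benjamini-Hochberg FDR = 0.113); without stimulated sample 1 it was -0.18 and passed with an FDR of 0.0456. None of Socs4, Socs5 or Socs6 passed when the log2FC was tested against 1.

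To compare levels between members, values were expressed per kilobase of merged exons in GENCODE M21. In unstimulated cells the order on this log2 CPM per kb scale was Socs5 (4.74), Socs4 (3.54), Socs3 (3.47), Socs7 (3.41), Socs6 (1.19), Socs1 (-0.26), Cish (-3.22) and Socs2 (-5.13). Socs3 differed there from Socs4 and Socs7 by less than its own SD. With CpG the order became Socs3 (6.20), Socs5 (4.43), Socs7 (3.28), Socs4 (2.98), Socs6 (1.70), Socs1 (1.45), Cish (-2.21) and Socs2 (-2.22), and Cish and Socs2 differed there by less than the SD of either. Socs1 thus stayed sixth in both orders. With the length of the main coding transcript Socs3 stood above Socs4 in unstimulated cells (3.65 against 3.54), again by less than its SD. That length moved Socs6, Cish and Socs2 most. They were then at 2.61, -1.04 and -1.06 with CpG and at 2.1, -2.05 and -3.96 without.

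The makeup of the family changed with the rise of Socs3. Socs3 gave 15.1%, 23.1% and 15% of the family's CPM per kb in unstimulated samples 1 to 3 and 60.5%, 63.5% and 60.9% in stimulated ones. Socs5 fell from 42.8%, 39.5% and 43.9% to 18.2%, 18.1% and 18.1% as a share, although its own level changed little. The sum over the 8 members was 60.3, 69.4 and 61.8 CPM per kb without and 115, 127 and 116 with CpG. These shares and sums are descriptions, as the choice of length moves them: with the length of the main coding transcript Socs3 gave 59.1% with CpG and 16.4% without.

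**Figure D3:**
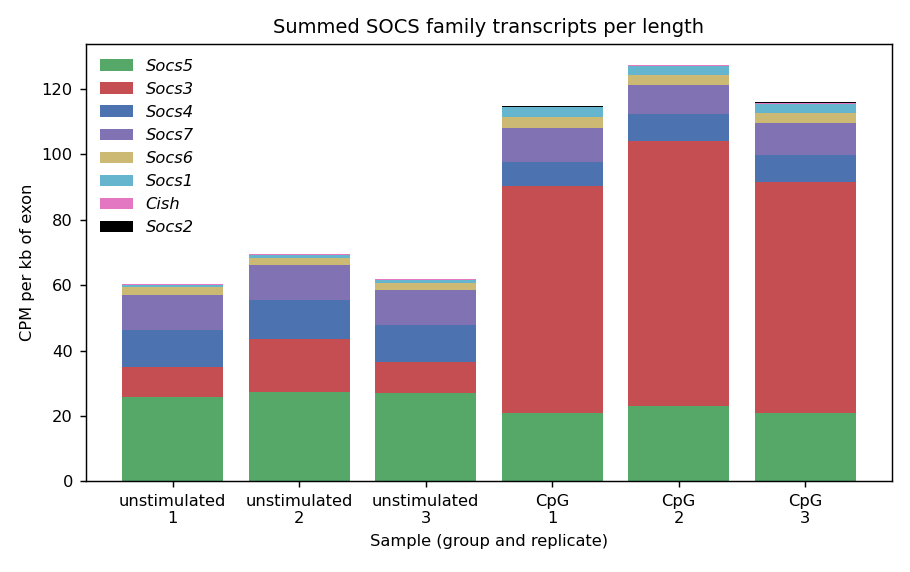
Summed expression of the SOCS family in CPM per kb of exon (vertical axis, linear from 0) in each sample, with 1 color for each member. Stimulated samples total 115 to 127 and unstimulated samples 60.3 to 69.4, and the red part, Socs3, is the one that grows most.

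Motifs of STAT, NF-κB and AP-1 factors were looked for in promoters, because members moved in opposite directions. Promoter windows from RefSeq (GRCm38.p6, 250 bases before to 50 after the start) were at hand for 4 of the 8 members, Socs1, Socs3, Socs4 and Cish. The STAT motif TTCNNNGAA, a palindrome and so the same on both strands, occurred once in the Socs3 window and 2 times in that of Cish, and not in those of Socs1 and Socs4. The stretches that hold it are shown on the strand of the gene, with the motif in capitals, because they carry the only matches found.
Socs3: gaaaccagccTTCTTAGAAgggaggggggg
Cish: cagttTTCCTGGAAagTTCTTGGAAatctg
The Socs3 stretch is chr11:117969501-117969530, minus strand, and its motif begins 154 bases before the RefSeq start at 117969366. GENCODE, whose gene bounds are given above, starts the coding transcript of Socs3 at 117969186, so that the motif lies before both starts, but it also lists a noncoding transcript from 117970047 and places the motif in its intron. The Cish stretch is chr9:107296654-107296683, plus strand, with motifs that begin at bases 1 and 12 from the RefSeq start at 107296659. GENCODE starts coding transcripts of Cish at 107296026, with both motifs in an exon of that transcript, and at 107296710 and 107296912, with both motifs before them. Of 32851 promoter windows of this length in the table, 8.3% held this motif. The form with 4 bases between TTC and GAA (6.95% of windows), the κB motif (8.46%) and the AP-1 motif TGANTCA (7.81%), each searched on both strands, had no match in these 4 windows. A match is only a run of letters, and no binding was measured here.

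The other genes of the pathway were grouped by role. Of 137 genes in 7 lists, 103 were tested, 24 were raised and 12 lowered past a log2FC of 1 in either direction with an FDR under 0.05 (limma, Benjamini-Hochberg), beside 15.8% and 15.3% of all tested genes. The machinery that SOCS boxes recruit was higher in most parts: of 13 ligase genes 10 were higher and 1 lower at an FDR under 0.05, beside 37.6% and 36.7% of all genes. The median log2FC was 0.41. Tceb1, the gene of elongin C, increased from 5.50 ± 0.12 to 6.66 ± 0.12 log2 CPM (mean ± SD, n = 3), and Ube2f, which loads NEDD8 onto cullin 5, from 5.02 ± 0.08 to 6.22 ± 0.08. Their log2FC values were 1.16 and 1.21. Among other proteins with a SOCS box but no SH2 domain, 2 of 15 tested genes were higher and 6 lower, the latter near the 36.7% of all tested genes that were lower. Asb14 was raised (1.12) and Spsb1 (-2.55), Neurl2 (-1.46) and Spsb2 (-1.18) were lowered. Spsb2 did not reach -1 without stimulated sample 3 (-0.98), without unstimulated sample 3 (-0.98) or in female samples alone (-0.77). With 1 CPM added before the log2, Asb14 (0.52), Neurl2 (-0.77) and Spsb2 (-0.98) fell short of 1 in either direction. Spsb1 entered the test only through the unstimulated group, where it had to be lower, and Asb14 did not pass in female samples alone (log2FC 0.76; limma, Benjamini-Hochberg FDR = 0.128).

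Cytokine genes whose receptors use JAKs were increased where they were measured. All 9 tested of 23 listed ligand genes were higher with an FDR under 0.05, and 8 were past a log2FC of 1, beside 37.6% and 15.8% of all tested genes. Of these 9, 4 entered the test only through the stimulated group, where they had to be higher. The other 5 were all higher, 4 of them past a log2FC of 1, and their median log2FC was 2.56. Il12b, the p40 subunit of IL-12 and IL-23, was at -3.33, -1.99 and -1.56 log2 CPM in unstimulated and 4.80, 4.54 and 4.74 in stimulated samples, and is one of the 4 that had to be higher. Il6, which signals through STAT3 and is restrained by SOCS3, was at -2.56, 0.12 and -0.40 without and 3.69, 5.23 and 4.15 with CpG. Sample 2, which also held the most erythroid transcripts, was highest in both groups, as for Socs3. Whether Il6 and Socs3 are linked in these samples was not tested. Ebi3, a subunit of IL-27 and IL-35, rose by a log2FC of 4.64.

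Of 27 tested receptor genes 5 were higher and 15 lower at an FDR under 0.05, beside 37.6% and 36.7% of all tested genes, and the median log2FC was -0.67. Il2ra (log2FC 3.47), Il15ra (2.94) and Il12rb2 (1.23) were raised, chains for IL-2, IL-15 and IL-12. Il13ra1 (-2.22), Lifr (-2.19) and Il6ra (-1.99) were lowered most, the last being the receptor chain that binds IL-6 itself. Lifr entered the test only through the unstimulated group, where it had to be lower. Il6ra was at 3.56, 3.99 and 3.57 log2 CPM without and 1.62, 1.85 and 1.67 with CpG.

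JAK kinases and STAT factors were all tested, and 3 of 11 were higher and 8 lower, beside 37.6% and 36.7% of all tested genes. Stat5a stood out with 6.49, 6.32 and 6.43 log2 CPM in unstimulated and 8.48, 8.18 and 8.24 in stimulated samples, a log2FC of 1.89 (standard error 0.08, limma, Benjamini-Hochberg FDR = 4.95e-08). Stat5b, its close relative, changed by -0.17. Stat3 (0.29) and Stat6 (0.24) were slightly higher. Stat2 (-1.01), Tyk2 (-0.88), Jak2 (-0.82), Stat4 (-0.45), Jak3 (-0.26) and Jak1 (-0.17) were among those lower. The smallest of these changes did not hold without single samples: the call was lost for Jak1 without any sample but stimulated sample 3 (FDR up to 0.164), for Jak3 without stimulated sample 3 or unstimulated sample 2 (up to 0.0617), and for Stat5b without stimulated sample 3 or unstimulated sample 1 or 3 (up to 0.0929). Stat2 did not reach -1 without stimulated sample 2 (-0.92) or without unstimulated sample 3 (-0.87). It also fell short in female samples alone (-0.89) and with 1 CPM added before the log2 (-0.98).

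Of 14 tested brakes on the pathway outside the SOCS family, 5 were higher and 7 lower, beside 37.6% and 36.7% of all tested genes, and the median log2FC was -0.23. Only Pias3, an inhibitor of STAT3, passed a log2FC of 1 in either direction (-1.40). It fell from 4.00 ± 0.17 to 2.59 ± 0.27 log2 CPM (mean ± SD, n = 3). Of 16 genes that STAT factors commonly induce, 12 were higher and 1 lower (37.6% and 36.7% of all tested genes), and 11 were past a log2FC of 1 (15.8%), led by Bcl2l1 (3.91), Il2ra (3.47) and Ccnd2 (3.17). Many of these genes also respond to NF-κB, and which factor acted was not tested.

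**Figure D4:**
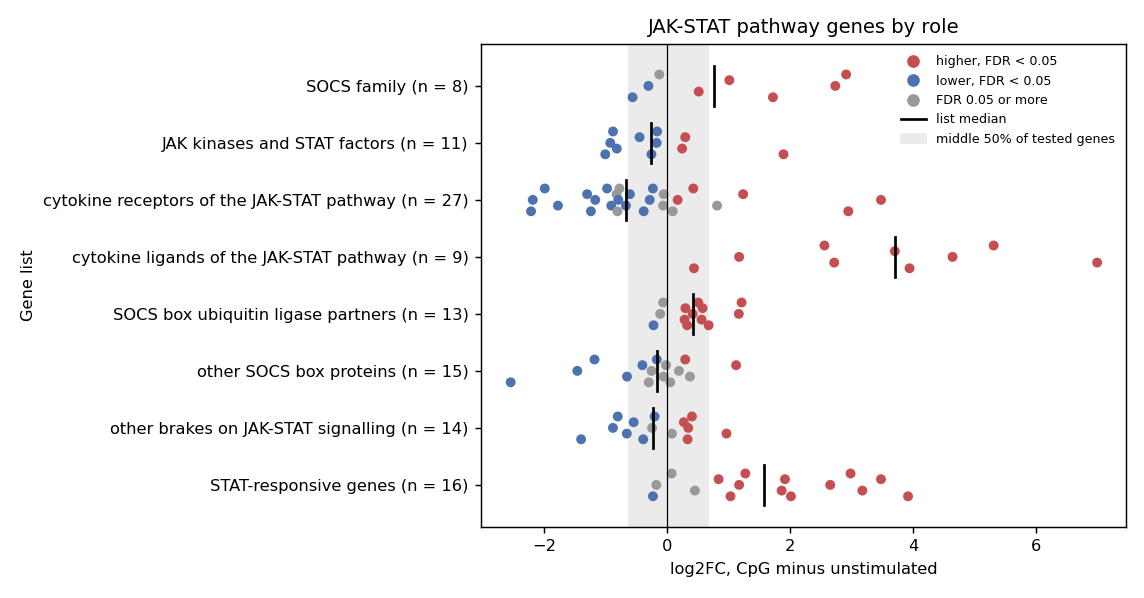
Log2FC (horizontal axis, CpG minus unstimulated) of tested genes in the SOCS family and 7 other lists of the JAK-STAT pathway, with each gene as a point, list medians as black lines and the middle 50% of tested genes as a grey band. Ligands lie to the right, with a median of 3.70 (2.56 without the 4 tested only through stimulated samples), receptor chains mostly to the left, with a median of -0.67, and SOCS genes on both sides.

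Genes with a pattern most like that of single members were found by the distance over the 6 samples after each gene's mean was removed. Socs4 was closest to Paf1 (distance 0.05), Map3k14 (0.07), Dcaf15 (0.08), Sh2b1 (0.08) and Tmem134 (0.08), all lower with CpG by a log2FC between -0.53 and -0.60. Socs2 had less close neighbors: Prokr1 (0.82), 1500009C09Rik (1.03), Nup62-il4i1 (1.04), Heyl (1.15) and Sds (1.23). Of these, Sds alone had a mean above the level of 10 reads (1.16 log2 CPM).

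The samples carried the markers of B cells. All 8 B cell markers were above the level of 10 reads, with Cd79b highest (mean 9.48 log2 CPM). Their summed level was lower with CpG, at 2580, 2960 and 2900 CPM against 3880, 3880 and 4510, and at an FDR under 0.05 (limma, Benjamini-Hochberg) 5 of the 8 genes were lower and 2 higher, beside 36.7% and 37.6% of all tested genes. Of 7 T cell markers 1 reached 10 reads on average (Cd5, which some B cells also express), and Cd3d, Cd3e, Cd4 and Cd8a were at or under 3 reads in all 6 samples. Of 4 NK cell markers 1 did (Prf1, 0.84), with Ncr1 and Gzma at or under 3 reads throughout. Prf1 was lower with CpG (0.06 against 1.62 log2 CPM; limma, Benjamini-Hochberg FDR = 0.000231), and the NK sum was 1.51, 2.59 and 2.31 CPM with CpG and 3.43, 3.14 and 2.98 without. Prf1 carried that direction: without it the NK sum was 0.694, 1.23 and 1.29 CPM with CpG and 0.0972, 0.0993 and 0.0973 without. Klrb1c, most of that sum with CpG, was not tested (mean -0.13 log2 CPM with CpG and -4.65 without). Of 8 myeloid markers 4 did, led by the macrophage marker Emr1 (2.75), and their sum was 10.4, 16.1 and 14.8 CPM with CpG and 7.68, 15.1 and 14.6 without. Without Emr1 the myeloid sum was 3.61, 5.99 and 4.2 CPM with CpG and 3.8, 10.2 and 7.84 without, and of 5 tested myeloid markers 1 was higher (Emr1) and 2 were lower past a log2FC of -1 (Cd14 and Csf1r), both tested only through the unstimulated group, beside 37.6% and 15.3% of all tested genes.

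Dendritic cell markers were mixed. Of 6, 3 reached 10 reads and were tested, and 2 were higher (Zbtb46 and Flt3) and 1 lower (Ccr9, mean -0.16 log2 CPM with CpG and 0.78 without) at an FDR under 0.05 (limma, Benjamini-Hochberg), beside 37.6% and 36.7% of all tested genes. The summed level of the list moved with the raised members and was 98.5, 106 and 90.8 CPM with CpG against 39.3, 32.4 and 36.5 without, most of it from Zbtb46 (mean 5.25 log2 CPM) and Flt3 (4.24). Itgax, Siglech and Xcr1 were under the level of 10 reads in the mean of each group. Whether dendritic cells or B cells gave the Zbtb46 and Flt3 reads, and their part in the rise of Socs genes, was not tested. The study's methods for B cells from another strain removed cells with antibodies that included CD11c, a dendritic cell surface marker, and CD11b, and whether the same antibodies were used for these mice is not given in the sources used here. In these bulk samples fewer cells of a type and less RNA per cell cannot be told apart. Of 6 erythroid markers 5 were listed and 3 reached 10 reads, with Beta-s highest (9.80 log2 CPM) and Hba-a1 and Hba-a2 at the level of no read.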

How the data were processed

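RNA-seq values of 3 CpG-stimulated and 3 unstimulated samples were used. Reads were aligned to mm10 with STAR (2.6.1a per the submitters' processing notes), counted with featureCounts (Subread 2.0.1), quantile normalized and converted with voom by the authors. The deposited values are log2 CPM, not counts. A gene without reads (0.5 reads in voom) was placed at -5.152, the most frequent value, which gives a common library of 17.8 M reads; the depth of each sample is not in the values, which sum to between 992384 and 1012396 CPM. Values also carry a shift by sample number: in replicate 1, 866 genes had the same value below that of no read in both groups. Differences between groups are not moved by it, but the spread within groups is, and so may be single values of low genes such as Socs2 and Cish.

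The comparison used lmFit and eBayes with a trend (limma 3.58.1, R 4.3.3). Genes had to exceed the level of 10 reads in 3 or more samples, and Benjamini-Hochberg adjustment ran over all genes tested. The threshold for raised or lowered genes was an FDR under 0.05 and a log2FC over 1 or under -1. The members, lists, thresholds and tests were chosen with earlier results of these data known. All 8 members were named; of other lists, up to 3 raised and 3 lowered genes, the JAK and STAT genes (1 is not reported here), and the most abundant marker. Of genes most alike, 5 were taken for the member with the largest and the one with the most negative log2FC at an FDR under 0.05; no member was lowered past -1, so the second, Socs4, was accepted on FDR alone after its value was seen. Older symbols were matched through RefSeq; Hbb-bt was not matched. Deviations from group means correlated between samples of the same number (0.435, 0.224 and 0.3), and less between others (-0.281 to 0.0279), so numbers were taken to pair the samples in an alternative fit; the shift by number can also give this. The procedure was tested on simulated data.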

Additional observations from a re-analysis of the deposited data

How the results depend on the processing

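Over 15 alternatives, 105 of 118 log2FC values of the 8 members kept their direction and call, 12 in 4 genes lost the call, 1 gained it and 0 reversed. Without each sample in turn, 4 to 5 members were higher and 2 to 3 lower at an FDR under 0.05, and 3 to 4 were raised past a log2FC of 1; 24 to 25 pathway genes were raised and 11 to 15 lowered, and 1650 to 1851 and 1667 to 1807 of all genes. With 10 reads required in every sample, Socs2 and Cish were not tested, which left 3 members higher and 2 raised. Tested against a log2FC of 1 with limma's treat, 3 members were higher and 0 lower, 5 pathway genes were lowered, and 914 and 968 of all genes passed, since treat asks for more evidence. With no filter Cish lost its call (limma, Benjamini-Hochberg FDR = 0.219; its alternatives ran from 0.00507 to 1); it also did without the variance trend (0.0615). The paired fit with the replicate block changed no call of a member (Cish FDR = 0.0344, Socs7 0.0635) and raised 1784 genes, 1774 of them shared with the unpaired fit. Of 519 values of the 35 other named genes, 475 kept direction and call, 40 in 21 genes lost the call, 1 gained it and 3 reversed. The reversed values were all of Beta-s (-0.92, -0.38 and -0.23), whose log2FC ran from -0.92 to 1.25 without single samples. With the replicate block Beta-s passed (limma, Benjamini-Hochberg FDR = 0.0245). The length of the main coding transcript, an alternative chosen after seeing the data, as was leaving out sample 2 of both groups, gave Socs3 59.1% of the family's CPM per kb with CpG (from 61.6%) and Socs5 21.2% with (from 18.1%) and 47.4% without (from 42.1%), as these lengths are shorter for some members; in unstimulated cells Socs3 then stood above Socs4. Socs2 and Cish were under the level of 10 reads in 3 and 2 unstimulated samples.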
